A study of Saccharomyces cerevisiae and Schizosaccharomyces pombe with 10 samples.

Results

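Budding yeast (Saccharomyces cerevisiae) protein-coding genes outside the RPL, RPS and RPP ribosomal protein genes are described here from long reads of nascent RNA. Nascent RNA is the RNA still held by transcribing polymerases on chromatin. A read belonged to such a gene when its largest same-strand overlap was a protein-coding gene of the R64 reference whose symbol does not start with RPL, RPS or RPP plus a digit, and when it touched no small RNA gene. In all, 3020 of 101128 aligned reads met this rule (2.99%, 95% Wilson interval 2.88 to 3.09). They fell in 1704 of the 5883 genes of this class in R64 (29.0%). Genes of mitochondrial ribosomal proteins, such as MRPL44, have other symbols and stayed in the class. The gene table gives each span from start codon to stop codon, introns included.

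The cells were strain BY4741 with the genotype MATa leu2D0 met15D0 ura3D0, grown at 30 °C in YPD, a complete glucose medium, and taken in exponential growth. The labels name 2 replicates, but their reads stand together and cannot be told apart, so all values are from 1 pool. No difference between replicates could be given, and no test was made. Shares carry a 95% Wilson interval and read counts an exact 95% Poisson interval. Both describe the error of counting alone, since PCR copies of a molecule are not independent.

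A long-read nascent library is made by ligating an adaptor to the 3′ end of the RNA and copying the whole molecule into cDNA. The read's 3′ end is taken as the place that RNA polymerase II had reached, and its 5′ end as the start of the transcript where the molecule is complete. Yeast promoters start transcription shortly before the start codon, and RNA is cleaved and polyadenylated after the stop codon. Finished mRNA that stays on chromatin could not be told apart from nascent RNA by position alone.

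Genotype and mating type were looked up first, since the labels give both. LEU2, MET17 (the gene also called MET15) and URA3, the genes named as deleted, had 0 reads each, and 0 of 3020 reads allows a share of up to 0.0993%. HIS3, an amino acid synthesis gene, had 2 reads, which ended 81 and 311 nt after its start codon. BY4741 is known to carry a partial deletion of HIS3, which the genotype in the labels does not name. STE2, the pheromone receptor of MATa cells, had 5 reads, and MFA2, which encodes the a-factor of these cells, had 2. MFA1, the other a-factor gene, had 0. STE3, MF(ALPHA)1 and MF(ALPHA)2, the genes used by MATalpha cells, had 0. Most genes of the class had no read, so a count of 0 is a weak check by itself. These genes were chosen with the genotype in view and after their values had been seen.

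Few reads of this class had the same alignment as another. Of the 3020 alignments 2995 were distinct (99.2%), while over the whole pool 12488 of 101128 were distinct (12.3%). Ribosomal protein genes had the same trait, with 603 of 608 distinct (99.2%). The 4 earlier sequencing movies (runs of the instrument) gave 886 reads of the class, 1.34% of their reads. The single later movie gave 2134, 6.06% of its reads, and thus 70.7% of the class. It gave 59.2% of the ribosomal protein reads and 34.8% of all reads. Since the later movie also held longer reads, positions are given for both.

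Enzymes of glucose fermentation led the class. PDC1, the main pyruvate decarboxylase (YLR044C, chromosome XII, 232390 to 234081), had the most reads, 67 (Poisson 51.9 to 85.1). TEF1, which encodes the translation elongation factor that brings aminoacyl-tRNA to the ribosome (YPR080W, XVI, 700594 to 701970), followed with 34 (23.5 to 47.5). The intervals of these leaders do not overlap. Next came TDH3, a glyceraldehyde-3-phosphate dehydrogenase (YGR192C, VII, 882812 to 883810), with 24 reads, and CDC19, pyruvate kinase (YAL038W, I, 71786 to 73288), with 22. ADH1, the alcohol dehydrogenase that makes ethanol (YOL086C, XV, 159548 to 160594), and SSA1, a cytosolic Hsp70 chaperone (YAL005C, I, 139503 to 141431), each had 20. From TEF1 downwards, the intervals of neighbouring genes overlap, so their order is not fixed by these counts.

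Other leaders serve the cell surface, lipids and proton transport. SED1, a major cell wall glycoprotein, had 17 reads. OLE1, the fatty acid desaturase, had 15. The glycolytic genes ENO2 and ENO1 (enolase) had 16 and 14, and FBA1 (aldolase) and TPI1 (triose phosphate isomerase) 13 each. TEF2, the second gene of the same elongation factor as TEF1, had 12, and SSA2, a close relative of SSA1, had 11. PMA1, the proton pump of the plasma membrane, and GPM1 (phosphoglycerate mutase) had 10 each. A further 8 genes had 9 reads each, namely BMH1, CWP2, DIA1, PGK1, PHO84, PMP2, YBR287W and YRA1. AHP1, a peroxiredoxin, stood among those with 8.

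The reads were spread thinly. Of the 1704 genes 1149 (67.4%) had 1 read, 317 had 2, and 16 had at least 10. The 10 leading genes held 249 reads (8.25%, 7.32 to 9.28) and the 25 leading genes 398 (13.2%). Genes named only by a systematic name gave 130 reads in 90 of 746 genes.

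**Figure D1:**
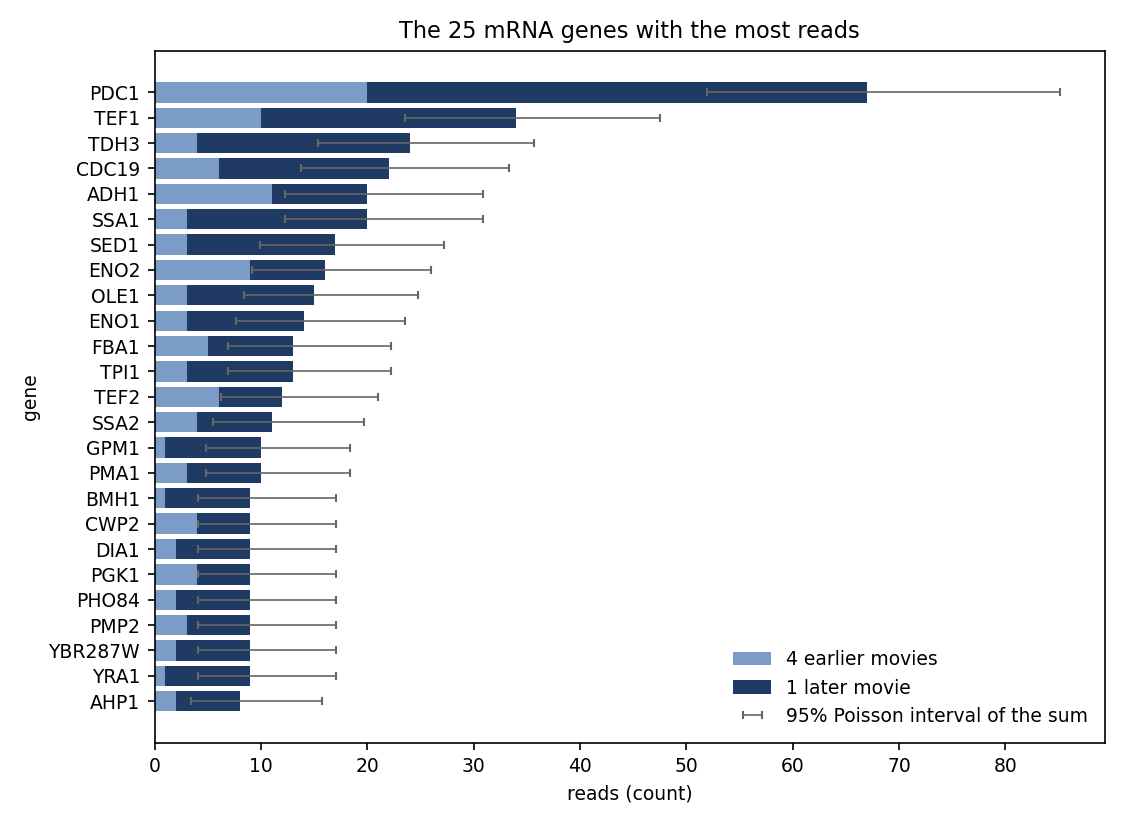
Read counts (x axis) of the 25 genes with the most reads, split into the 4 earlier movies and the later movie, with the 95% Poisson interval of each sum. PDC1 stands at 67 reads, and from TEF1 (34) to AHP1 (8) neighbouring intervals overlap.

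The order of leaders was partly shared by the movies. PDC1 led both, with 20 of 886 reads (2.26%) in the earlier movies and 47 of 2134 (2.20%) in the later movie. TEF1 had 10 and 24 reads there, 1.13% and 1.12%. ADH1 was second in the earlier movies with 11 reads (1.24%) and at rank 10 in the later movie with 9 (0.422%). SSA1 gave 3 reads in the earlier movies and 17 in the later, and TDH3 4 and 20.

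Among paralogs, the reads fell mostly on 1 copy in several families. All 67 pyruvate decarboxylase reads were on PDC1 and none on PDC5 or PDC6. All 20 alcohol dehydrogenase reads were on ADH1, with 0 on ADH2, ADH3, ADH4 and ADH5. TDH3 had 24 reads against 5 for TDH2 and 1 for TDH1, and CDC19 had 22 against 1 for PYK2. In other families copies were shared more evenly, as for ENO1 and ENO2 (14 and 16), SSB1 and SSB2, ribosome-bound Hsp70 genes (6 and 4), and EFT1 and EFT2, which encode elongation factor eEF2 (4 and 8). Where the coding sequences of copies are nearly identical, their split rests on the aligner's placing of reads and is uncertain. Of the 3020 reads 30 (0.993%) had more than 1 alignment, 2 of them on PDC1.

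Functional lists were drawn up from general knowledge, with earlier results of these data known, and are given as counts beside the whole class. Over all 5883 genes there were 0.342 reads per kb of gene span, and 29.0% of genes had a read. Glycolysis and fermentation stood at 5.79 reads per kb, with 243 reads (8.05% of the class, 7.13 to 9.07) in 23 of 31 genes. Its leaders were PDC1, TDH3 and CDC19. Histones and HMG proteins, the packaging proteins of chromatin, stood at 5.14 reads per kb with 32 reads in 11 of 14 genes. HHT1 (histone H3), HTA1 (H2A) and HTB1 (H2B) had 6 each. Reads per kb favours lists of short genes. In the class, reads per gene were 0.405 at spans up to 300 nt and 0.617 above 3000 nt. Per gene, histones and HMG proteins held 2.29 reads and glycolysis and fermentation 7.84, against 0.513 in the class.

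Genes of protein folding and synthesis followed per kb, while per gene chaperones (2.46) and translation factors (2.66) stood above histones (2.29). Chaperones had 118 reads in 36 of 48 genes (1.88 per kb), led by SSA1, SSA2 and HSP104, the disaggregase, with 8. Translation factors had 125 reads in 31 of 47 genes (1.49 per kb), led by TEF1, TEF2 and EFT2. Cell wall and secreted proteins had 103 reads in 31 of 55 genes (1.17 per kb), led by SED1, CWP2 and CCW12 (8), all mannoproteins of the wall. These values are descriptions, since the lists were chosen with earlier results known.

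The next lists stood between 0.5 and 1 read per kb. Nuclear genes of oxidative phosphorylation had 31 reads in 17 of 47 genes (0.978 per kb), of which ATP2, a subunit of the mitochondrial ATP synthase, held 7, and ATP14 and QCR8 3 each. The secretory pathway had 75 reads in 41 of 80 genes (0.898), led by YOP1 (5), ARF1 (4) and SEC21 (4). Sterol and lipid synthesis had 59 reads in 22 of 49 genes (0.764), led by OLE1, FAS2 (8) and FAS1 (5), the last pair being subunits of fatty acid synthase. Proteasome and ubiquitin genes had 45 reads in 25 of 54 genes (0.755), led by PRE9 (4), RPN1 (3) and RPN2 (3). Plasma membrane transporters had 75 reads in 31 of 59 genes (0.614), led by PMA1, the phosphate transporter PHO84 (9) and the phosphate transporter PHO89 (7). Amino acid and sulfur metabolism had 73 reads in 41 of 83 genes (0.550), led by glutamine synthetase GLN1 (8), GLY1 (8) and ILV5 (7). Nucleotide metabolism had 32 reads in 20 of 43 genes (0.528), led by ADE3 (4), IMD4 (3) and URA1 (3).

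The other lists stood near or below the class value per kb. Ribosome biogenesis had 77 reads in 47 of 147 genes (0.328 per kb), led by DBP2 (7), UTP10 (5) and DIP2 (4). The cytoskeleton had 34 reads in 20 of 43 genes (0.382), led by ACT1 (5), CMD1 (4) and SLA1 (4). mRNA splicing, processing and decay had 51 reads in 28 of 104 genes (0.283), led by YRA1 (9), RAT1 (4) and NPL3 (3). Transcription and chromatin had 42 reads in 29 of 78 genes (0.278), led by MBP1, MIG1 and OPI1 with 3 each. The Poisson intervals of these 4 lists include the class value per kb, while those of the lists named before them lie above it. These intervals count reads of 1 gene as independent, so this is no test of the lists. Per gene the order differed, with 0.791 reads in the cytoskeleton and 0.744 in nucleotide metabolism, against 0.513 in the class. Ribosome biogenesis held 0.524, splicing, processing and decay 0.490, and transcription and chromatin 0.538. Genes of the mitochondrial genome gave 4 reads in 4 of 18 genes (0.0585 per kb), on AI1, AI5_BETA, ATP6 and BI2. Spans were summed in full where genes overlap, which lowers a value per kb, so how low this list stands is uncertain. Per gene it held 0.222 reads. Genes in no list held 1775 reads in 1228 of 4801 genes (25.6%).

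**Figure D2:**
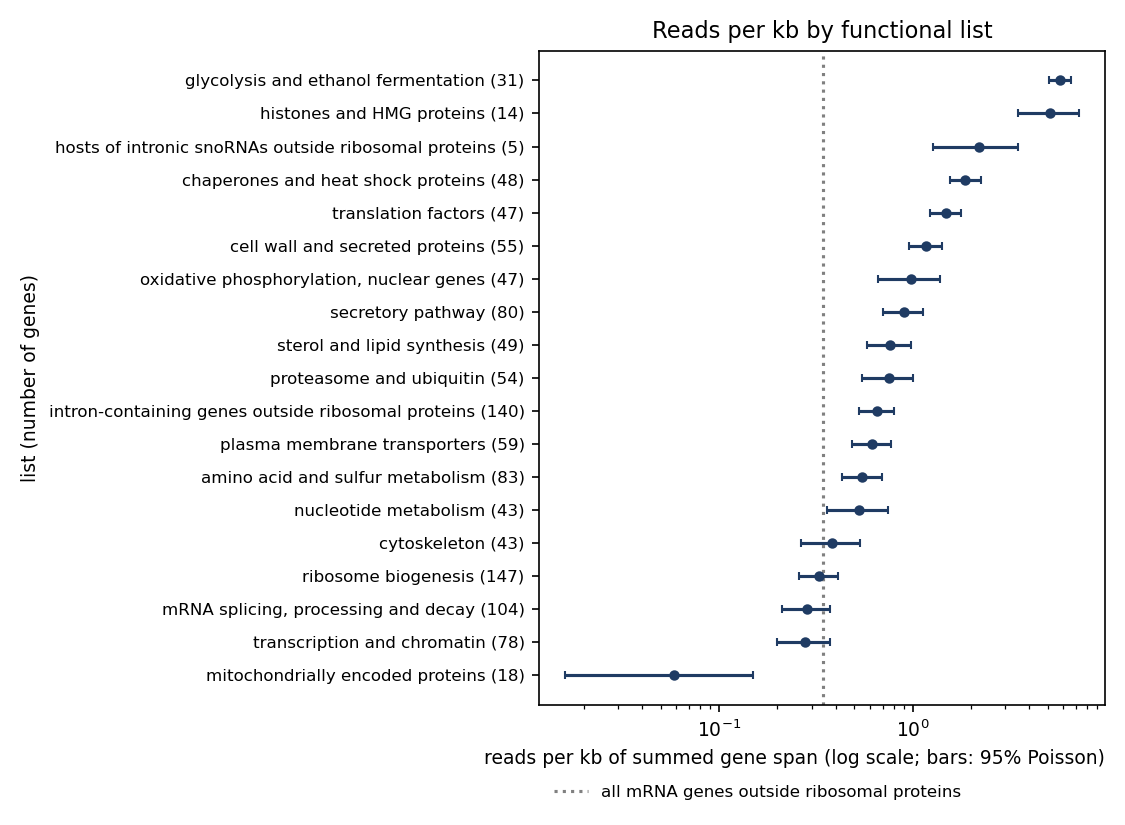
Reads per kb of summed gene span (x axis, log scale) for each list, with the number of its genes and 95% Poisson intervals. Glycolysis (5.79) and histones (5.14) stand highest, mitochondrially encoded genes (0.0585) lowest, and the dotted line is the whole class (0.342). Spans were summed in full where genes overlap, which lowers a value per kb. Per gene, histones held 2.29 reads against 7.84 in glycolysis.

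The 5′ ends gathered just before the start codon. The median 5′ end lay 38 nt before it, with quartiles at 19 and 71 nt. Of all reads 2581 (85.5%, 84.2 to 86.7) began before the start codon and 2111 (69.9%, 68.2 to 71.5) within the 100 nt before it. A further 345 (11.4%) began in the first 100 nt of the coding span, 94 (3.11%) beyond that, and 2 beyond 500 nt. A read with no base in the coding span could not be assigned, so reads that ended within the leader are missing by construction. In 371 reads (12.3%, 11.2 to 13.5) under 50% of the aligned bases lay in the assigned gene, so their assignment is less certain. Without these 371 reads, 1514 genes had a read.

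In single genes the 5′ end was often 1 fixed base. Of the 67 PDC1 reads 57 (85.1%) began 30 nt before the start codon, and 33 of 34 TEF1 reads began 31 nt before it. ENO1 had 12 of 14 reads at 37 nt and ENO2 13 of 16 at 30 nt. All 9 reads of YRA1, an mRNA export adaptor, began 83 nt before its start codon. In other genes starts were spread over several bases, as in FBA1, where 5 of 13 reads shared the commonest start and 5 began inside the coding span, and BMH1, where no base held more than 2 of 9. Over the 16 genes with at least 10 reads, 220 of 318 reads (69.2%, 63.9 to 74.0) began at their gene's commonest base and 258 (81.1%) within 5 nt of it. Counting identical alignments once gave 204 of 302 (67.5%).

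In a small set of genes reads began far before the start codon. In all, 117 reads (3.87%) of 94 genes began more than 200 nt before it in genome bases, the farthest 714 nt. That read, on SIM1, had a gap of 487 nt before the start codon. Reads of SUN4 (550 nt, gap 346 nt) and PUS2 (256 nt, gap 80 nt) also had such a gap. Leaders of these 3 reads were thus shorter than the distances given. PMA1 had 9 of its 10 reads in this range, with starts between 230 and 236 nt. For FKS1, a glucan synthase of the cell wall, all 6 reads began between 249 and 257 nt. All 5 reads of FAS1 began between 324 and 339 nt, and all 3 of PEP4, a vacuolar protease, between 251 and 263 nt. Among genes with 2 such reads, the starts lay at 207 and 209 nt in ANY1, but further apart in MRS6 (340 and 372 nt), DSE2 (221 and 268 nt) and PMR1 (242 and 291 nt).

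The 3′ ends, in contrast to the 5′ ends, were scattered through the opening part of genes. The 67 PDC1 reads had 58 distinct 3′ ends, from 52 to 1506 nt after the start codon counted from its first base, with a median of 266 nt and quartiles at 151 and 463 nt. None passed the stop codon. The 34 TEF1 reads had 32 distinct 3′ ends with a median of 231.5 nt (7 to 1107 nt). OLE1 reads reached further, with a median of 446 nt over 15 reads (63 to 1123 nt). Over the 16 genes with at least 10 reads, 31 of 318 reads (9.75%, 6.95 to 13.5) lay at their gene's commonest 3′ base, against 69.2% at the commonest 5′ base. With identical alignments counted once it was 24 of 302 (7.95%).

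**Figure D3:**
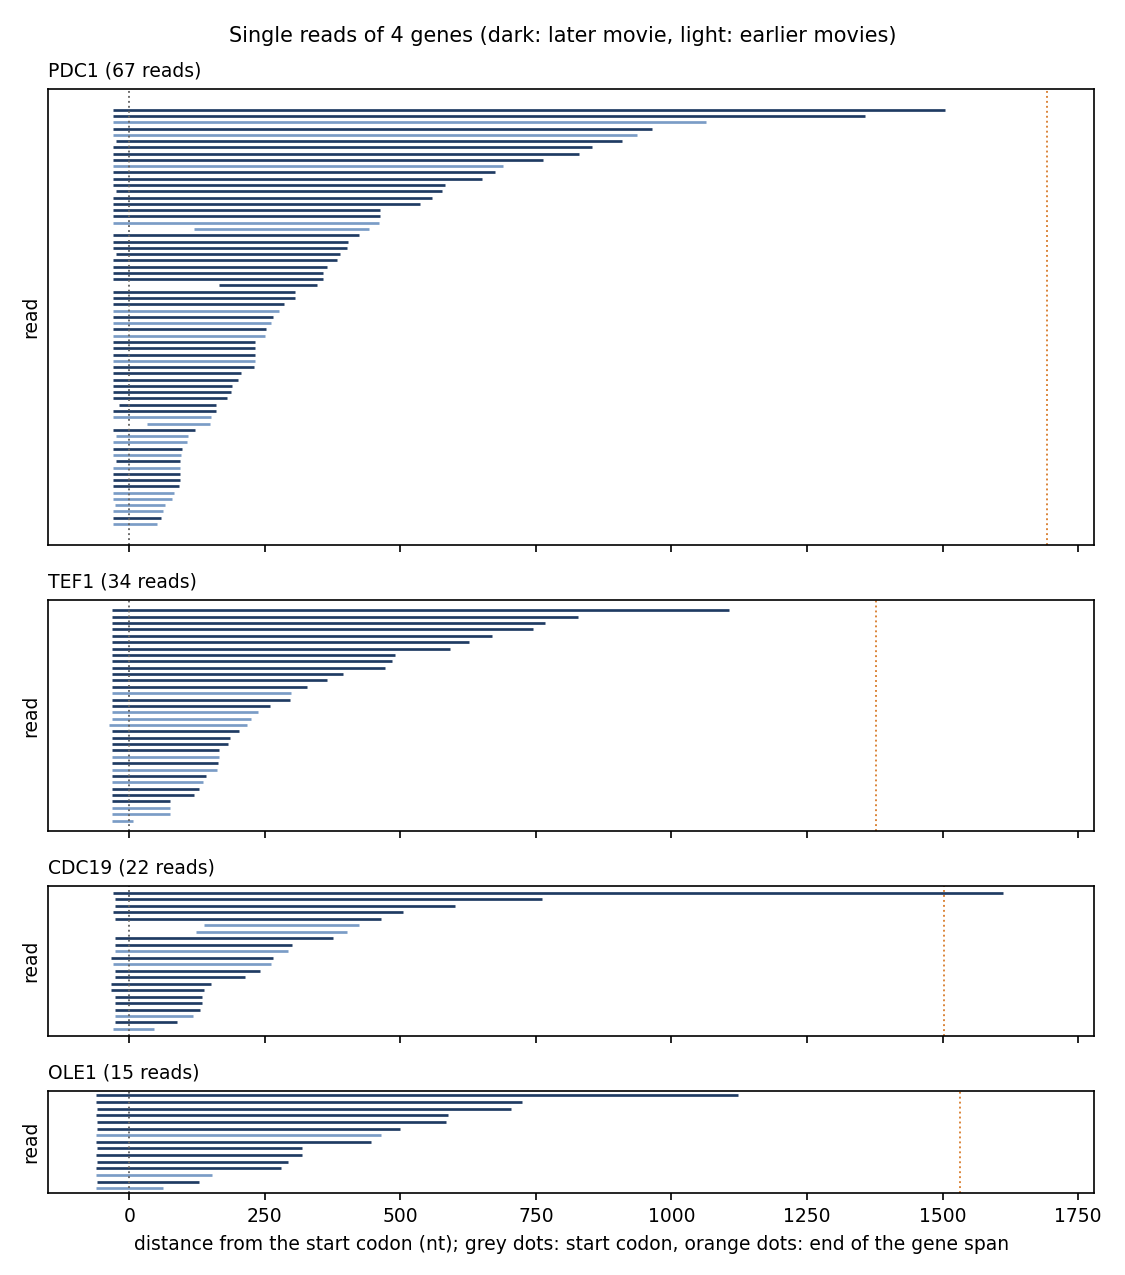
Each line is 1 read of PDC1, TEF1, CDC19 or OLE1, drawn by its distance from the start codon (x axis, nt) and sorted by 3′ end, dark for the later and light for the earlier movies. Left ends stand nearly in a column (57 of 67 at 30 nt before the start codon in PDC1), while right ends spread out and seldom reach the stop codon.

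The 5 genes with the highest share of reads at 1 shared 3′ end, among those with at least 10 reads, were PMA1, ENO2, TDH3, TEF2 and ENO1, and these ends lay 146 to 250 nt after the start codon. In PMA1 3 of 10 reads ended at base 146 and 2 more at base 145, so that 5 of 10 ended within 2 nt of each other. In TDH3 4 of 24 reads ended at base 170, and in ENO2 3 of 16 at base 150. In TEF2 2 of 12 ended at base 163 and in ENO1 2 of 14 at base 250. In PMA1 the 3 reads at base 146 also shared their 5′ end, and came from both the earlier and the later movies. Since PCR copies cannot be told from repeat molecules in these files, identical reads may be 1 molecule, which was not tested.

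Over the whole class the median 3′ end lay 236 nt after the start codon (quartiles 140 and 396.25 nt), and 2524 reads (83.6%, 82.2 to 84.9) ended within 500 nt of it. In genes with spans of at least 1500 nt, 1315 reads of 739 genes, the share was 16.9% at 1 to 100 nt, 26.2% at 101 to 200 nt and 20.7% at 201 to 300 nt. It was 7.30% (96 reads) in the bin that ends at 500 nt and 5.86% (77 reads) at 501 to 600 nt, and 0.152% (2 reads) lay at 1401 to 1500 nt. Reads were short beside these genes. Over the class the median aligned length was 281 nt (quartiles 188 and 438 nt), 19.1% of reads had at least 500 nt and 2.72% at least 1000 nt. The part that read length has in this fall was not tested.

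Read length and 3′ position differed between movies, and so did the share of reads that began inside the coding span, while the median 5′ end moved by a few bases. Median aligned length was 215 nt in the earlier movies and 303 nt in the later movie, and the median 3′ end lay 187 and 257 nt after the start codon. The median 5′ end lay 33 and 39 nt before it. Reads that began inside the coding span made up 20.9% (18.3 to 23.7) of the earlier and 11.9% (10.6 to 13.3) of the later reads. The longest reads came from the later movie. SCP160 gave 1 of 2189 nt, which began 186 nt before the start codon and ended 2003 nt after it, within a span of 3669 nt. PSD2 gave 1 of 2155 nt. HIP1, a histidine permease, gave 1 of 2061 nt that ran from 82 nt before the start codon to 167 nt past the stop codon.

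Reads that passed the stop codon were few, and their share was highest in short genes. Of the 3020 reads 185 (6.13%, 5.33 to 7.04) ended past it, at a median of 116 nt (quartiles 63 and 176 nt), and 143 (4.74%) ran from before the start codon to past the stop codon, in 112 genes. By gene span, 60.8% of 120 reads ended past the stop codon in genes of up to 300 nt (51.9 to 69.1) and 18.4% of 315 in longer genes of up to 600 nt. It was 6.87% of 364 reads in the next bin, up to 900 nt, 2.75% of 910 up to 1500 nt, 0.408% of 981 up to 3000 nt, and 0 of 330 above 3000 nt (upper Wilson limit 1.15%). The median 3′ end hardly moved over the same bins, from 251 nt after the start codon in the shortest genes to 200 nt in the longest.

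PMP2, which encodes a small proteolipid bound to the PMA1 pump, showed this best. Its span is 132 nt, and 8 of its 9 reads ran through the whole gene and ended from 7 to 447 nt past the stop codon. NHP6A, an HMG-box protein gene of 282 nt, did so in 3 of 3 reads, which ended 84 to 173 nt past it, and MNC1 (201 nt) in 4 of 5. EFB1, which encodes an exchange factor for elongation factor eEF1A, had 2 spliced reads of 864 and 879 nt that ended 210 and 228 nt past the stop codon.

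**Figure D4:**
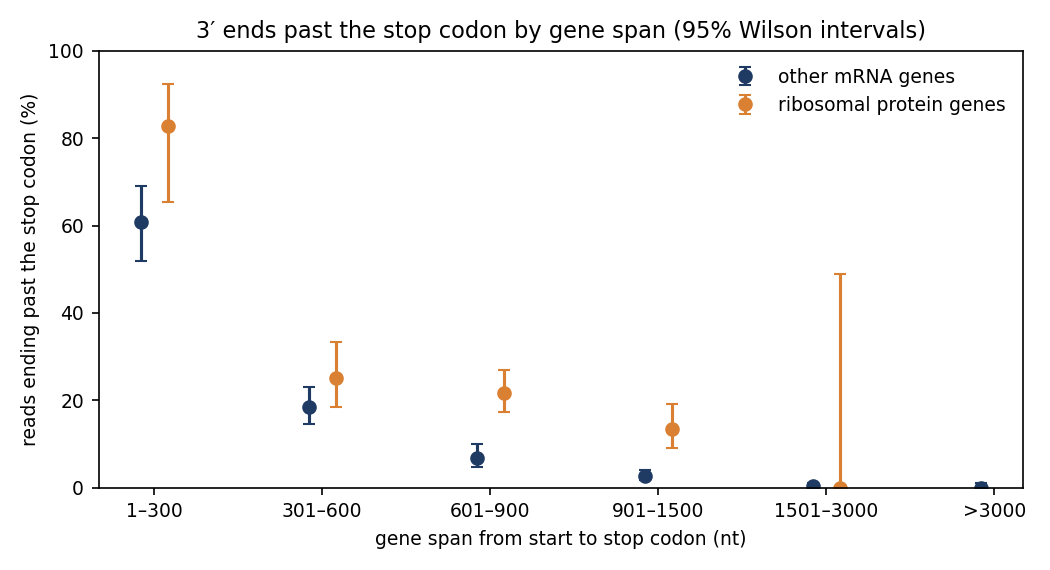
Share of reads whose 3′ end lay past the stop codon (y axis, %) against gene span (x axis, nt), with 95% Wilson intervals. In the genes outside ribosomal proteins it goes from 60.8% at up to 300 nt to 0 above 3000 nt; the ribosomal protein point above 1500 nt is 4 reads of 1 gene.

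Ribosomal protein genes, the other mRNA genes of the pool, were measured the same way. They gave 608 reads in 124 of 138 genes, 4.18 reads per gene at spans over 600 and up to 900 nt against 0.423 in the other genes. The median 5′ end lay 22 nt before their start codons (quartiles 17 and 32 nt), against 38 nt (19 and 71 nt). Their median length was 279 nt against 281 nt, while 139 reads (22.9%, 19.7 to 26.4) ended past the stop codon against 6.13%. By span the gap varied. Up to 300 nt the share was 82.8% (65.5 to 92.4) against 60.8% (51.9 to 69.1), and from there up to 600 nt it was 25.2% (18.5 to 33.4) against 18.4% (14.5 to 23.1), with intervals that overlap in both bins. Up to 900 nt it was 21.7% (17.3 to 27.0) against 6.87% (4.70 to 9.94), and up to 1500 nt 13.4% (9.08 to 19.3) against 2.75% (1.87 to 4.02). The spans of ribosomal protein genes hold introns, and 289 of the 608 reads (47.5%) had a gap against 28 of 3020 (0.927%). Distances here count genome bases, so a spliced read reaches further along its gene than its length shows. These are shares of reads in 1 pool, and the differences were not tested.

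**Figure D5:**
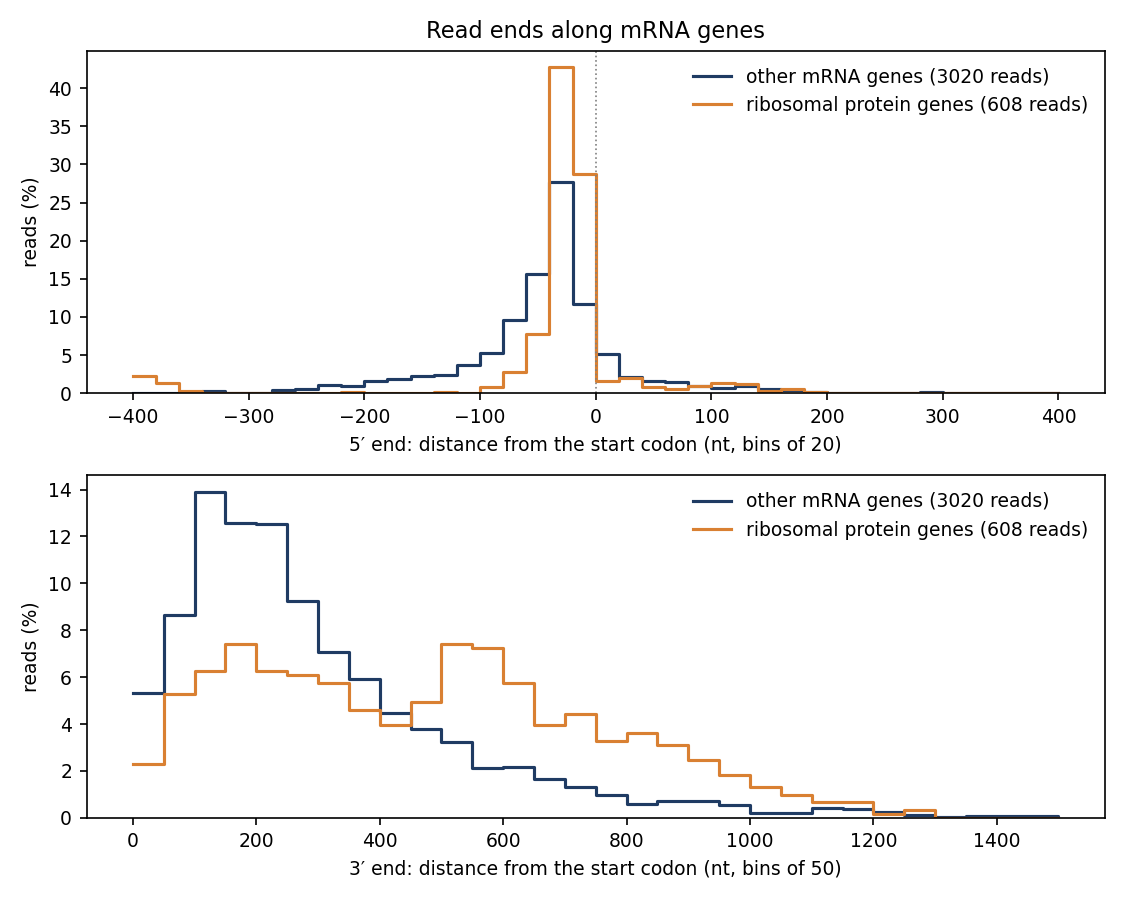
Distribution of 5′ ends (top) and 3′ ends (bottom) by distance from the start codon (x axes, nt) in % of reads, for 3020 reads of mRNA genes outside ribosomal proteins and 608 of ribosomal protein genes. 5′ ends of both peak before the start codon (medians 38 and 22 nt), and 3′ ends of the former have a median of 236 nt against 473 nt.

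Introns are rare outside ribosomal protein genes in this yeast, and they are removed by the spliceosome in 2 steps, of which the first frees the upstream exon. Gaps of 30 to 3000 nt were found in 28 reads of 22 genes, 1 gap each, from 54 to 766 nt long (median 114.5 nt). Of these genes 17 were on a list of 140 intron-containing genes drawn up from general knowledge. The 5 gaps outside the list lay in PUS2, RCF3, SIM1, SUN4 and YPR170W-B. Splice site bases were not read, so a gap is not by itself proof of an intron. At these gaps 28 of 32 informative reads were spliced (87.5%, 71.93 to 95.03). Each gap entered through a spliced read, so this share cannot be low and does not measure how complete splicing was. The same rule in ribosomal protein genes gave 291 of 307 (94.8%, 91.7 to 96.8). In both classes reads that touched a small RNA gene were left out, so unspliced reads across an intronic snoRNA could not count. With largest overlap alone the share outside ribosomal protein genes was 28 of 33 (84.8%).

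ACT1 (actin, VI, 54378 to 54686, 309 nt) and EFB1 (I, 142254 to 142619, 366 nt) had 3 spliced reads each and no unspliced read. In EFB1 none could be counted, since an unspliced read would touch the snoRNA gene SNR18 and be left out. The ACT1 reads all began 120 nt before the start codon and ended 64, 202 and 561 nt past the 3′ splice site. SAC6 (fimbrin, which bundles actin; IV, 715248 to 715358) and YOP1 (a membrane-shaping protein; XVI, 623578 to 623710) had 2 spliced reads and 1 unspliced read each. The SAC6 reads had passed the 3′ splice site by 58 and 65 nt when spliced, while its unspliced read of 896 nt ended 882 nt after the start codon. SEC27, a coat protein of transport vesicles (VII, 249887 to 250086), and YPR170W-B (XVI, 883388 to 883486) had 1 read of each kind.

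The other gaps had 1 spliced read and no unspliced one. They lay in ASC1, BET1, ERV41, GIM5, HMRA1, NSP1, PFY1, PUS2, RCF3, RIM1, RPO26, SIM1, SUN4, TFC3, VMA9 and YRA1. An unspliced ASC1 read would touch the snoRNA gene SNR24 and be left out. The ends nearest to a 3′ splice site were those of VMA9, a subunit of the vacuolar proton pump, at 33 nt and TFC3, a subunit of a polymerase III transcription factor, at 38 nt. ERV41 was the farthest, at 1033 nt. The HMRA1 gap of 54 nt lies in the a1 gene, whose sequence MATa cells also carry at the mating type locus. In SIM1, SUN4 and PUS2 the gap lay wholly before the start codon, from 489 to 3 nt, 358 to 13 nt and 168 to 89 nt before it. None of these 3 was on the list.

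Some reads without a gap ended at or just before the exon border, and these do not tell whether the intron was removed. In ACT1 1 read of 130 nt ended at the last base of the exon before the intron, 10 nt after the start codon began. In EFB1 1 read of 101 nt ended at the last base of its exon, 80 nt after the start codon began. In YRA1 reads of 366 and 367 nt ended 2 and 1 nt before that base. Exact ends there made up 2 of the 51 reads of genes with a gap (3.92%, 1.08 to 13.2) and 7 of 404 such reads (1.73%, 0.842 to 3.53) in ribosomal protein genes. Reads whose 3′ end lay inside the intron numbered 5, of which YRA1, with its 766 nt intron, held 3.

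Hosts of intronic snoRNAs need care, because processed snoRNAs lie inside them. By largest overlap alone 4631 reads fell on genes of this class, and 1611 of these touched a small RNA gene, with 923 at SNR18 in EFB1, 375 at SNR38 in TEF4, 168 at SNR54 in IMD4, 82 at SNR24 in ASC1, 62 at SNR191 in NOG2 and 1 at SNR60 beside YJL047C-A. Of the 1611 reads 1543 (95.8%) had at least 90% of their bases in the small RNA and 50 had under 0.5 of them there, and all 1611 were left out. What remained was 6 reads of TEF4, 4 each of EFB1 and ASC1, 3 of IMD4 and 0 of NOG2. Of the TEF4 reads 3 ended at 1 base with 89 nt between it and SNR38, and 2 ended 2 nt before that base. All 6 ended before SNR38, so none crossed the intron, and they do not tell whether it was removed. As a list, the 5 host genes held 17 reads in 4 genes (2.19 per kb). Of the 140 listed intron-containing genes, snoRNA hosts included, 47 had 98 reads (0.654 per kb).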

How the data were processed

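Per the labels' protocols, a DNA adaptor with random bases was joined to the 3′ ends of nascent RNA, cDNA was made with the SMARTer system and a low number of PCR cycles, and Pacific Biosciences sequencing followed. The deposited file gives, for each alignment, the genome positions of its ends and blocks and its strand. The deposited score column held 40 throughout, how the authors set this score is not stated, and it had no use here. Per the submitters' processing notes, the build was sacCer3 and cutadapt version 1.8 was used; which aligner was run is not given in the sources used here. In the pool of 2 labelled replicates there were 101128 alignments of 100834 reads; fission yeast and reporter samples were not used here.

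Each alignment was assigned with Python 3.11.15 to the R64 gene (RefSeq table, strand from the systematic name) with the largest overlap of aligned blocks. Reads that touched a small RNA gene by at least 1 nt were left out. The planned rule gave small RNA genes only ties, which left reads of intronic snoRNAs in, so leaving such reads out, listed at first as an alternative, gives the reported values, and largest overlap alone stands as the alternative. The assignment was run on simulated reads without gaps that began shortly before the start codon of a protein-coding gene. Gaps, starts inside a gene and reads of small RNA genes were not simulated, so the assignment of such reads was not tested. Gaps of 30 to 3000 nt counted as introns without a check of the bases at their ends. A read was informative if it crossed both ends. A read was spliced with a gap within 3 nt of both ends.

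Named genes were the 25 with the most reads, the 10 with the most distinct alignments, 3 per list, all with a gap, and, among those with at least 10 reads, the 5 with the most piled 5′ or 3′ ends; further genes were named after their values were seen. The genes and lists were chosen with earlier results of these data known. For a count of 0 the upper limit is taken as 3 counts. Alternatives were identical alignments counted once, earlier or later movies, other overlap rules, reads with 1 alignment, no mitochondrial genes, and no leading gene.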

Additional observations from a re-analysis of the deposited data

How the results depend on the processing

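No paired analysis was possible because the reads of the 2 labelled replicates stand in 1 pool, and leaving out a replicate could not be done for the same reason. With largest overlap alone and small RNA genes given ties only, there were 4631 reads, 38.7% of them in the 10 leading genes, with a median length of 194 nt; 45.6% began within 100 nt before the start codon, 4.02% ended past the stop codon and 3.09% ran through the gene. These values differ by the snoRNA reads that rule holds. The earlier movies alone gave 886 reads of 678 genes, a median length of 215 nt, 66.7% within 100 nt before the start codon, 4.74% past the stop codon, 3.27% through the gene and 7 of 7 reads spliced (100%). The later movie alone gave a median length of 303 nt. Requiring 50% of the aligned bases in the gene gave a median of 291 nt and 75.5% within 100 nt before the start codon. Without PDC1 the 10 leading genes held 6.60%. Within 50 and 200 nt before the start codon lay 48.6% and 81.6% of 5′ ends, and 4.83% of 3′ ends lay at least 50 nt past the stop codon. Gaps seen in at least 3 spliced reads gave 100% spliced (6 of 6). The other 49 values stayed within 1.5 times (counts) or within the 95% interval of the reported value, among them all values with identical alignments counted once and with mitochondrial genes left out. Splicing in listed intron-containing genes alone, added after seeing the data, was 88.5%. With 1149 of 1704 genes at 1 read, depth limits any order of genes below the leaders.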

Other observations

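Reads that shared 1 start were assigned to a pair of neighbouring genes. DMO1 (YJR120W, X, 647126 to 647476) had 3 reads, each of which began at base 289 of its span and ended 77 to 184 nt past its stop codon. That start is the same base at which 6 of the 7 reads of ATP2, the next gene (YJR121W, X, 647607 to 649142), began, 193 nt before the ATP2 start codon. The 3 reads held 63 nt of DMO1 each. Besides these and the ATP2 reads, 1 read of the 3020 began at the commonest start of another gene, on YMR045C at that of YMR046C. Genes were compared only where the commonest start held at least 2 reads, and this comparison was made after the values were seen.

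Some genes below the leaders also had most of their reads at 1 start. GLN1 had 7 of 8 reads at 117 nt before the start codon, PHO84 8 of 9 at 39 nt, and ATP2 6 of 7 at 193 nt. PMP1, the close relative of PMP2, had 4 of 5 at 151 nt, whereas no base held more than 2 of the 9 PMP2 reads. CMD1, which encodes calmodulin, had 4 of 4 at 44 nt, and IMD4 3 of 3 at 123 nt. These genes were chosen after their values were seen.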
